A study of Drosophila melanogaster with 2 samples.

Results

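The Enhancer of split complex, E(spl), is a run of small genes on chromosome arm 3R of Drosophila melanogaster. It was followed here through peak lists from chromatin immunoprecipitation with sequencing (ChIP-seq) of GFP-tagged fd96Cb, a forkhead family transcription factor. Its 10 listed genes were taken by symbol from Ensembl, and all 10 were found among 13945 protein-coding genes: 7 that encode basic helix-loop-helix (bHLH) proteins and 3 that encode Bearded family (BFM) proteins. In dm6 they span 3R from 25997621 to 26041008. Everything below was mapped over that stretch with 10000 bp on each side, a window of 63.4 kb from 25987621 to 26051008, which also holds Kaz-m1 (earlier called E(spl)m1), E(spl)m6-BFM, gro, CG43116 and 6 long noncoding RNA genes.

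Both samples are whole embryos collected from 0 to 24 h after laying. They come from a transgenic line that stably carries fd96Cb fused at its C-terminal end to GFP, and they are biological replicates numbered 2 and 3 of a single group. The precipitation used an antibody to GFP, per the labels, whose antibody field names fd96Cb itself. An untagged line was not analysed here, and whole embryos mix all cell types and 24 h of development, so a peak does not say in which cells or when the tagged protein was at a site.

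Notch signalling passes between neighbouring cells. When a ligand such as Delta binds the receptor Notch, the released intracellular part of Notch joins the DNA-binding protein Su(H) and switches on target genes, of which the E(spl) genes are the best known in the fly. The bHLH members are repressors that carry a tail motif by which they recruit the co-repressor Groucho, the product of gro. They hold down the proneural genes, so that only single cells of a cluster become neural precursors. The BFM members are short proteins, several of which act on the Notch pathway itself by inhibiting Neuralized, a ubiquitin ligase needed for Delta activity.

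The complex was densely occupied by strong peaks. The authors' optimal set by irreproducible discovery rate (IDR), a procedure that compares peak ranks between replicates, holds 5743 peaks, and 11 of their summits fell in the window. They are numbered 1 to 11 below along the arm. That is 1.74 summits per 10 kb, against 0.429 over 6 chromosome arms (the X, both arms of 2 and of 3, and 4). The pooled list, called on both replicates together and 30000 peaks long, held 28 summits in the window, these 11 included. The IDR set is the 5743 strongest peaks of that list by signal. Membership thus amounts to a cut-off on pooled signal and does not mean that each peak ranked alike in both replicates. Of the 11, 7 lay between the first and the last listed gene, 2 in the left flank and 2 in the right flank.

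**Figure D1:**
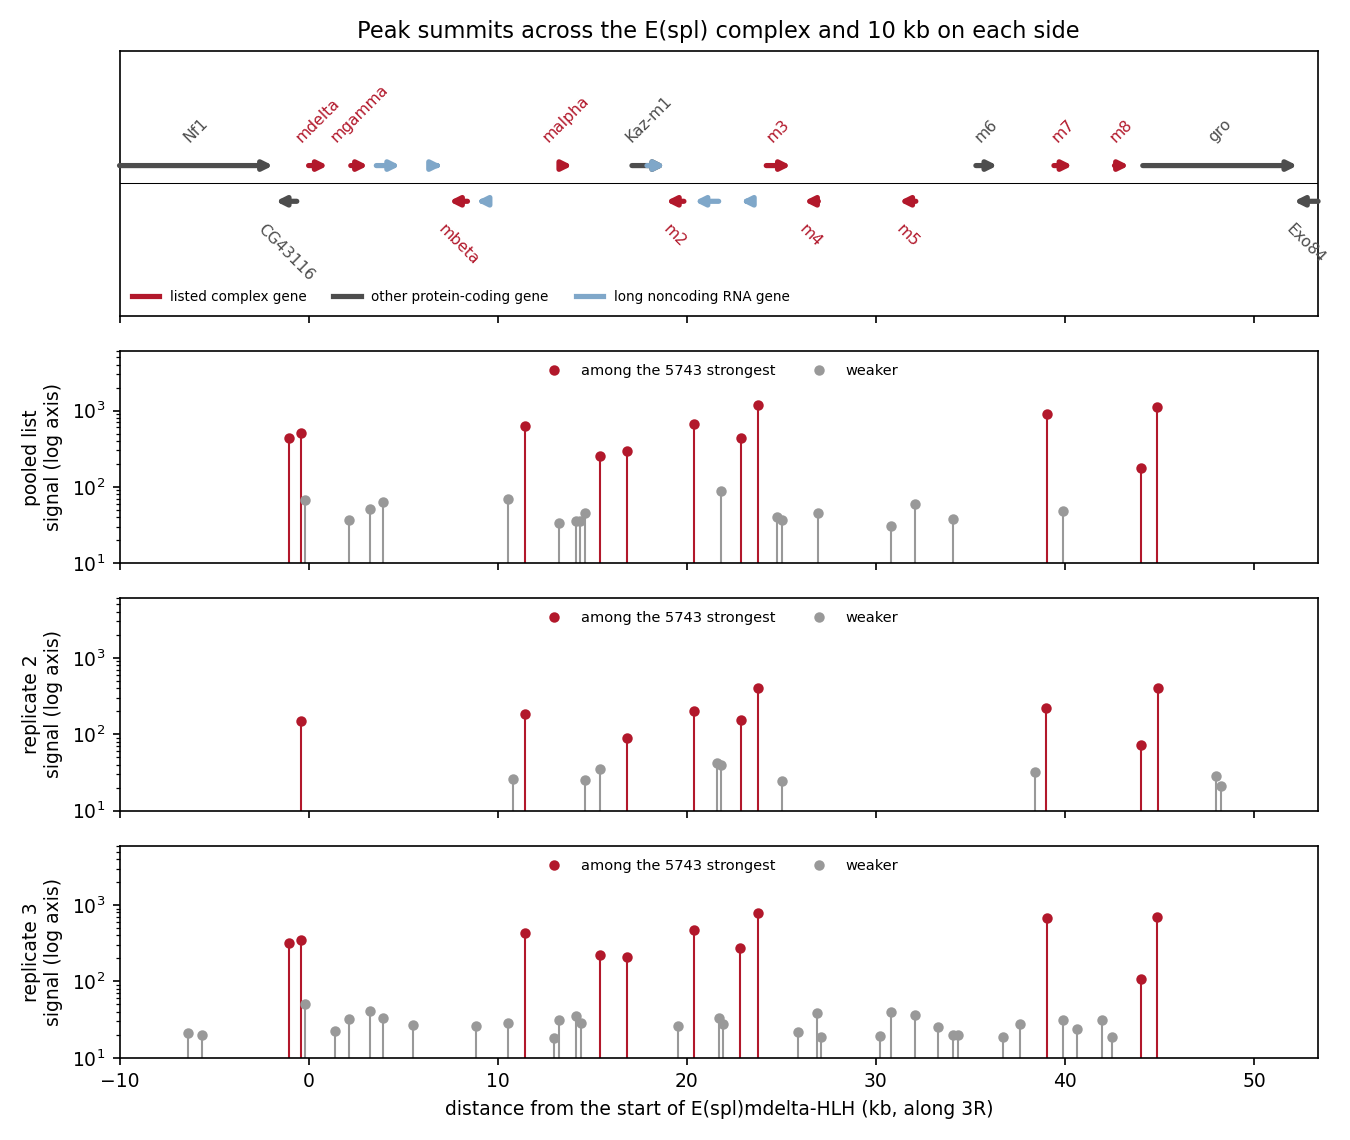
The upper panel shows genes as arrows in their direction of transcription, and the lower panels show each summit of the pooled list, of replicate 2 and of replicate 3 at its position along 3R (kb from the start of E(spl)mdelta-HLH), with the authors' signal value on a log axis. Red marks summits among the 5743 strongest of a list: 11 in the pooled list, 9 in replicate 2 and 11 in replicate 3.

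Sequences are shown first for 6 of the 11 IDR summits. They are the strongest promoter summit of gro and of each listed gene that has one, and summit 3 upstream of E(spl)malpha-BFM. Each runs 50 bp to either side of the summit in dm6, on the plus strand, and capitals mark matches to the loose forkhead pattern on either strand, that is ACAAACA with A or G as the first letter, C or T as the second and C or T as the sixth.
Summit 2, E(spl)mdelta-HLH and CG43116, chr3R:25997179-25997279, plus strand: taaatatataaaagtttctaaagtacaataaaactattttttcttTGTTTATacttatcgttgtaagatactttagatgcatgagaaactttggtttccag
Summit 3, upstream of E(spl)malpha-BFM, chr3R:26009025-26009125, plus strand: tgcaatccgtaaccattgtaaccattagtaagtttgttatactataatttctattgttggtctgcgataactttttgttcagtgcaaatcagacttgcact
Summit 6, E(spl)m2-BFM, chr3R:26017954-26018054, plus strand: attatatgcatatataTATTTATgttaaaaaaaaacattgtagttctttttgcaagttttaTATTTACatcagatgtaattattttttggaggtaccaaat
Summit 8, E(spl)m3-HLH, chr3R:26021352-26021452, plus strand: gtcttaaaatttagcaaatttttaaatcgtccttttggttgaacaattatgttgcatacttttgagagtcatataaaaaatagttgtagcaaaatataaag
Summit 9, E(spl)m7-HLH, chr3R:26036609-26036709, plus strand: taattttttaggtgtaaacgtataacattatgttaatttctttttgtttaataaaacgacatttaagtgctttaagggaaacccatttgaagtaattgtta
Summit 11, gro, chr3R:26042450-26042550, plus strand: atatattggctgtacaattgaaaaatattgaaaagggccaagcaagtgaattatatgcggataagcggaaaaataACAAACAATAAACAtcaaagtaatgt
All 6 are rich in A and T, with runs of either letter, and summits 3, 8 and 9 hold no match to the pattern. Summit 10, the other promoter summit of gro, is not printed. It had the highest GC of the 11 IDR summits, at 42.6%, and no match to the pattern.

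A strong peak stood near the start of some of the listed genes and not of others. An IDR summit lay within 1000 bp of the transcription start site (TSS) of 4 of the 10 genes (40.0%), against 21.9% of all protein-coding genes. These were 3 of the 7 bHLH genes, E(spl)mdelta-HLH, E(spl)m3-HLH and E(spl)m7-HLH, and 1 of the 3 BFM genes, E(spl)m2-BFM. With 10 neighbouring genes the count is too small to be set apart from that background, and it was not tested.

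Among the bHLH genes, E(spl)m3-HLH (FBgn0002609, 3R, 26021823 to 26023127, plus strand) had the strongest peak of the window. Its interval ran from 26021170 to 26021637, with summit 8 at 26021402, 421 bp upstream of the TSS. The signal value was 1166, rank 214 of the pooled list and so within the top 3.73% of IDR peaks. Replicate 2 gave it signal 399.1 and rank 269, and replicate 3 gave it signal 778.3 and rank 183. Both replicates thus placed it near the top of their 30000 peaks. The same summit lay 326 bp upstream of the long noncoding RNA gene lncRNA:CR43644, which is transcribed the other way. By its strongest promoter peak E(spl)m3-HLH stood 208th among the 3052 protein-coding genes with one.

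E(spl)m7-HLH (FBgn0002633, 3R, 26037038 to 26038019, plus strand) had summit 9 at 26036659, 379 bp upstream of its TSS, in a peak from 26036458 to 26036857. Signal was 891.9 and the pooled rank 376. The replicates ranked it further apart than the peak at E(spl)m3-HLH, at 818 in replicate 2 (signal 221.4) and 238 in replicate 3 (signal 680.3). No other gene start lay within 1000 bp of that summit.

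E(spl)mdelta-HLH (FBgn0002734, 3R, 25997621 to 25998633, plus strand) had summit 2 at 25997229, 392 bp upstream, in a peak from 25997039 to 25997434. Signal was 506.7 and the pooled rank 1039, with rank 1505 in replicate 2 (signal 148.5) and 907 in replicate 3 (signal 351.1). This summit cannot be given to E(spl)mdelta-HLH alone. It lay between that gene and the oppositely transcribed CG43116, whose TSS was nearer, at 233 bp. It was the only one of the 8 promoter summits of the window shared by more than 1 protein-coding gene, while 37.7% of the 2511 IDR promoter summits of the genome were shared in this way.

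Among the BFM genes, E(spl)m2-BFM (FBgn0002592, 3R, 26016514 to 26017470, minus strand) had summit 6 at 26018004, 534 bp upstream of its TSS, in a peak from 26017801 to 26018155. Signal was 672.1 and the pooled rank 661. The ranks were 966 in replicate 2 (signal 201.7) and 539 in replicate 3 (signal 468.4). On the far side, the summit lay 23 bp beyond the 3′ end of lncRNA:CR43643, which runs towards E(spl)m2-BFM.

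Measured from the listed gene, all 4 summits lay upstream of the TSS, between 379 and 534 bp away. Measured from the nearest TSS of any protein-coding gene, which for summit 2 is that of CG43116 at 233 bp, the median of the 2511 IDR promoter summits of the genome was -145 bp, with 79.2% upstream. None of the 4 summits fell over a TSS or inside a listed gene.

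**Figure D2:**
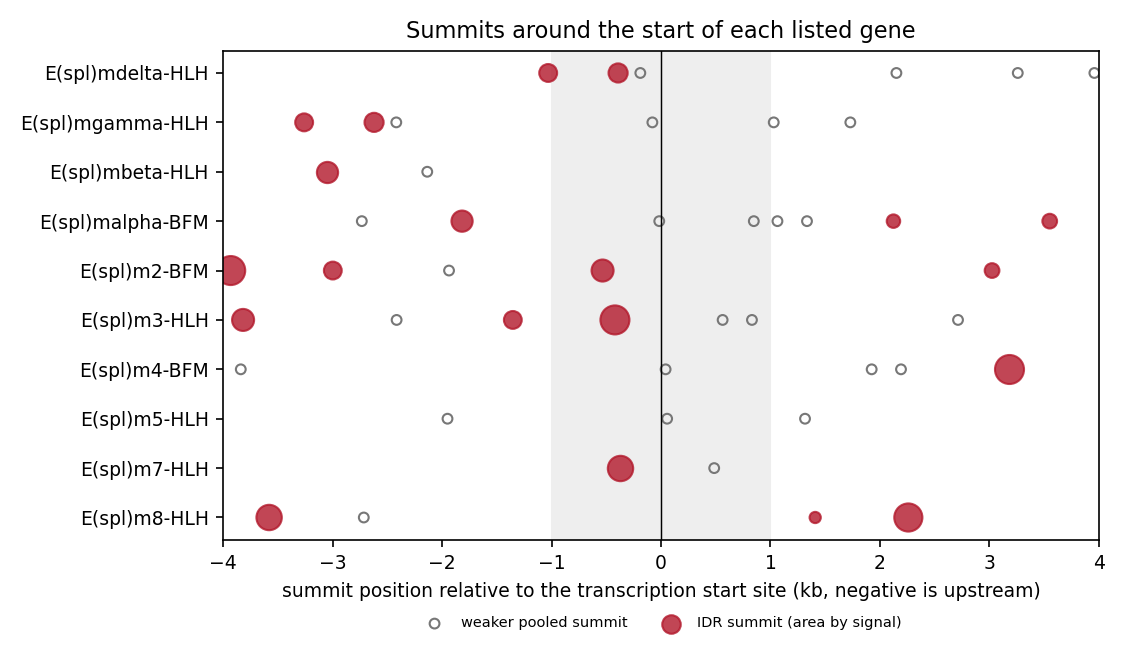
Each row is a listed gene in map order, and each point is a summit of the pooled list at its position relative to the TSS (kb, negative is upstream), with the 1000 bp promoter window shaded. Filled red points are IDR summits, with area in proportion to signal, and open points are weaker summits. The IDR summits at E(spl)mdelta-HLH, E(spl)m2-BFM, E(spl)m3-HLH and E(spl)m7-HLH stand at -392, -534, -421 and -379 bp.

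The other 6 listed genes had no IDR summit within 1000 bp. For E(spl)malpha-BFM (FBgn0002732, 3R, 26010893 to 26011568, plus strand), the nearest was summit 3 at 26009075, 1818 bp upstream in intergenic sequence, with signal 623.2 and pooled rank 746 (1117 in replicate 2 and 625 in replicate 3). For E(spl)m8-HLH (FBgn0000591, 3R, 26040240 to 26041008, plus strand), the bHLH gene altered in the classical E(spl) dominant mutation, it was summit 10, 1409 bp downstream of the TSS and beyond the end of the gene, with pooled rank 4194. E(spl)mgamma-HLH (FBgn0002735) had none nearer than 2622 bp upstream and E(spl)mbeta-HLH (FBgn0002733) none nearer than 3052 bp upstream. For E(spl)m4-BFM (FBgn0002629) the nearest lay 3177 bp downstream, and it was the summit of E(spl)m3-HLH. E(spl)m5-HLH (FBgn0002631) was farthest from a strong peak, at 6924 bp.

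Distances to the nearest IDR summit thus ran from 379 to 6924 bp over the 10 genes. Their median was 1613.5 bp, against 6581 bp over all protein-coding genes. Neighbours share summits, so these are not 10 separate observations. Within 500 bp of the TSS the count with an IDR summit was 3 of 10, E(spl)m2-BFM being lost, against 18.5% of all genes. With a window of 2000 bp it rose to 6 of 10, with E(spl)malpha-BFM and E(spl)m8-HLH added, against 27.7% of all genes. At 5000 bp it was 9 of 10, all but E(spl)m5-HLH, against 43.5%.

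Of the remaining strong peaks, those at gene starts lay at neighbours of the listed genes. Gro had both right-hand summits. Summit 11 at 26042500 (peak 26042334 to 26042666) had signal 1096 and pooled rank 242, close to that of E(spl)m3-HLH, with rank 260 in replicate 2 and 226 in replicate 3. It lay in an intron of gro, 141 bp upstream of an internal TSS. Summit 10 at 26041649 lay 87 bp upstream of the first TSS of gro and was the weakest IDR summit of the window, at signal 174.6, with rank 3797 in replicate 2 and 4250 in replicate 3. Kaz-m1, a complex gene that encodes a Kazal-type protease inhibitor, had summit 5 at 26014445, 276 bp upstream, with signal 299.4 and pooled rank 2214. E(spl)m6-BFM, the remaining Bearded family gene of the complex, had none within 1000 bp, with its nearest IDR summit 3748 bp downstream.

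Summit 1 lay inside CG43116, in an intron 406 bp from its TSS, with signal 443 and pooled rank 1282. Summits 4 and 7 were intergenic. Summit 4 at 26013017 lay 1704 bp upstream of Kaz-m1 and 2124 bp downstream of the TSS of E(spl)malpha-BFM, with signal 250.6. Summit 7 at 26020469 lay 1354 bp upstream of E(spl)m3-HLH and 10 bp beyond the 3′ end of lncRNA:CR43644, with signal 440.5. Over the 11 summits, 9 lay outside protein-coding genes, 2 in introns and 0 in an exon. No share of all IDR summits is set beside these counts, so they are not read as particular to the complex.

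Strong peaks were spread unevenly within the window. Neighbouring IDR summits were a median of 3012 bp apart, against 8266 bp over the genome, and 8 of the 10 gaps were under 5000 bp, against 37.8% of gaps over the genome. The 2 wide gaps measured 11846 and 15257 bp. The first ran from summit 2 to summit 3 and held the bodies of E(spl)mdelta-HLH, E(spl)mgamma-HLH and E(spl)mbeta-HLH. The second ran from summit 8 to summit 9 and held E(spl)m3-HLH, E(spl)m4-BFM, E(spl)m5-HLH and E(spl)m6-BFM.

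The density was set against all windows of the same length, started every 1000 bp along the 6 arms (133502 windows). These overlap one another, so the shares describe the genome and are not chance levels. A window held a median of 2 IDR summits and a mean of 2.73, and 29.1% held none. At least 11 were found in 1.83% of windows, and the fullest held 22. On 3R alone the share was 1.09%. Gene-rich windows, with at least the 14 gene starts of the E(spl) window, held a mean of 4.06, and 1.61% of the 16777 such windows reached 11. For the complex alone, without the flanks and their summits at gro and CG43116, the count was 7, and 4.4% of windows of its length held as many. For the full pooled list the window stood out less, as 9.25% of windows held at least 28 summits. Both shares depended on the replicate. With the 5743 strongest peaks of replicate 2 alone, the window held 9 summits and 4.12% of windows held as many, and with those of replicate 3 alone it held 11 and 2.15% did. With the full lists it was 34.4% for replicate 2 and 1.63% for replicate 3.

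**Figure D3:**
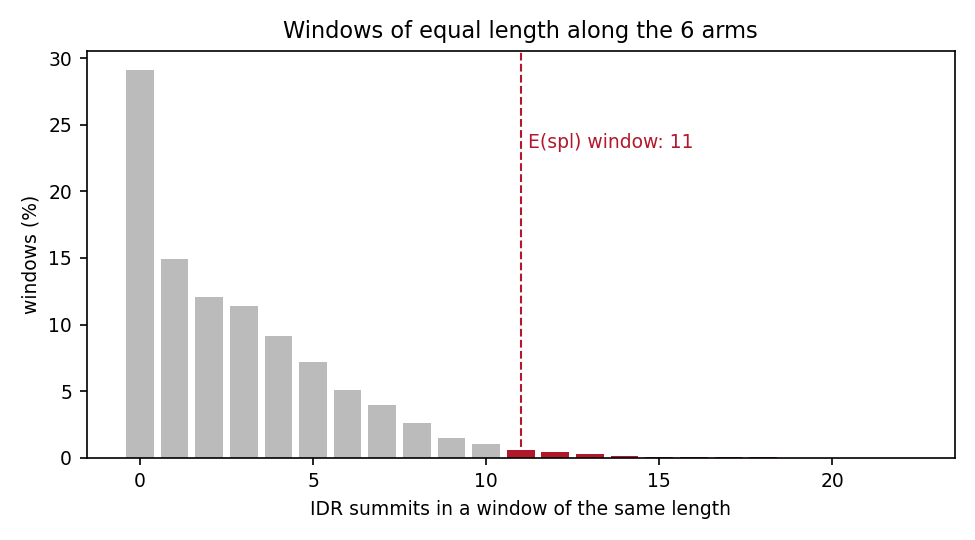
Bars give the percentage of windows of the same length along the 6 arms (y axis) that hold each number of IDR summits (x axis). Red bars are windows with at least the 11 of the E(spl) window, marked by the dashed line, which make up 1.83% of all windows.

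The peaks were also strong ones. By pooled signal, 10 of the 11 IDR summits were in the strongest 50% of the 5743 IDR peaks, 8 in the strongest 25% and 3 in the strongest 10%. With the strongest 2871 IDR peaks only, 0.324% of windows held at least the 10 left in the E(spl) window. The 4 listed genes with a promoter summit kept it there.

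The replicates listed the same strong summits with 1 exception. Within 100 bp, 10 of the 11 IDR summits were in both replicate lists, where 92.3% of all IDR summits were. All 11 were among the 5743 strongest peaks of replicate 3 and 9 among those of replicate 2. Summit 1, in CG43116, had rank 1042 in replicate 3 (signal 321.2), while the nearest summit of replicate 2 was 639 bp away, at summit 2. Summit 4 had rank 1751 in replicate 3 (signal 223.3) and 9131 in replicate 2 (signal 34.93). The other 9 were in the first 5743 of both. Replicate 3 placed 9 of the 10 shared summits ahead of replicate 2, the exception being summit 10, whereas over all 5298 IDR summits in both lists it did so for 50.6%.

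**Figure D4:**
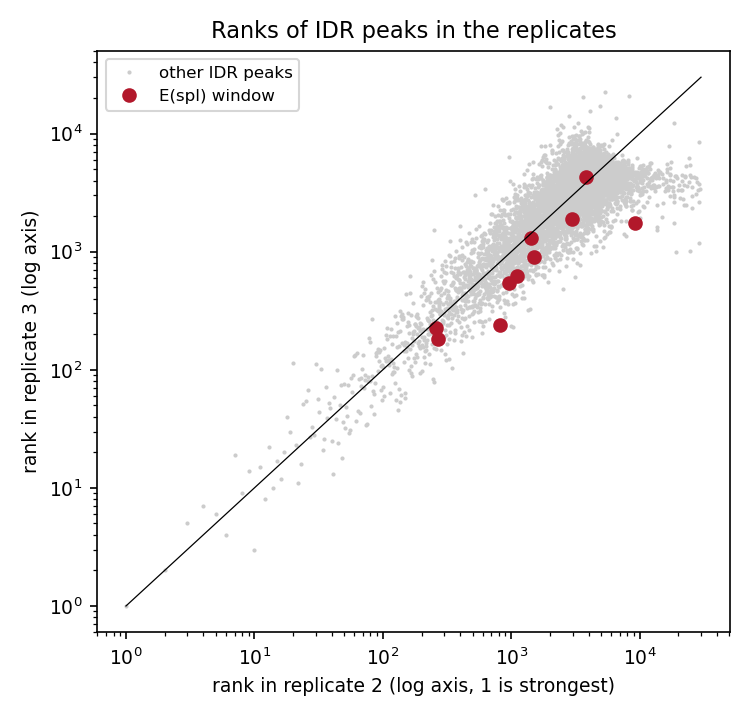
Each point is an IDR peak with a summit within 100 bp in both replicates, at its rank in replicate 2 (x axis) and in replicate 3 (y axis), both on log axes with 1 the strongest. Red points are the 10 of the E(spl) window, of which 9 lie below the line of equal rank, farthest for summit 4 at ranks 9131 and 1751.

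Weak peaks at the complex came mostly from replicate 3. The full lists of both replicates have 30000 peaks each, yet the window held 18 summits of replicate 2 and 43 of replicate 3. Of the 17 pooled summits outside the IDR set, 3 had a replicate 2 summit within 100 bp, 14 a replicate 3 summit, 1 both and 1 neither. Their signal ran from 31.23 to 88.89, and the weakest IDR summit of the window had 174.6. This order is given by the lists, since the IDR set is the strongest part of the pooled list, and nothing is read from it. The pooled list gave 8 of the 10 genes a summit within 1000 bp of the TSS, against 55.9% of all protein-coding genes, and 9 within 2000 bp, against 67.7%. Replicate 2 alone gave 4 (51.0% of all genes) and replicate 3 alone 10 (57.4%). The 4 of replicate 2 were again E(spl)mdelta-HLH, E(spl)m2-BFM, E(spl)m3-HLH and E(spl)m7-HLH.

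Several weak summits lay close to the TSS of genes without a strong peak. The pooled list had one 79 bp upstream of E(spl)mgamma-HLH (rank 22713), one 16 bp upstream of E(spl)malpha-BFM (rank 26647), one 42 bp downstream of the TSS of E(spl)m4-BFM (rank 17129) and one 56 bp downstream of that of E(spl)m5-HLH (rank 12200). Replicate 2 listed none of these 4 within 100 bp. Of the 17 weak summits, 5 lay in exons, 3 of them in the coding sequence of E(spl)m3-HLH and E(spl)m7-HLH and 2 in the 5′ untranslated regions of E(spl)m4-BFM and E(spl)m5-HLH.

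Strong summits sat in AT-rich sequence. Mean GC within 50 bp of the 11 IDR summits was 27.0% ± 6.89 (SD, n = 11 summits), from 17.8% at summit 4 to 42.6% at summit 10. Over all 5743 IDR summits it was 30.5% ± 7.71 (SD), and over the whole window 44.4%. The 17 weaker summits had 46.3% ± 11.6 (SD). Both points 500 bp away had a higher GC than the summit for 10 of the 11, the exception being summit 10. That count, too, has no share of all IDR summits beside it. AT-rich sequence was not always occupied. Of 45 stretches of the window with a GC of at most 25% within 50 bp, 8 had an IDR summit within 100 bp, and 34 had no summit of the pooled list. How far base composition bears on the density of summits was not tested.

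**Figure D5:**
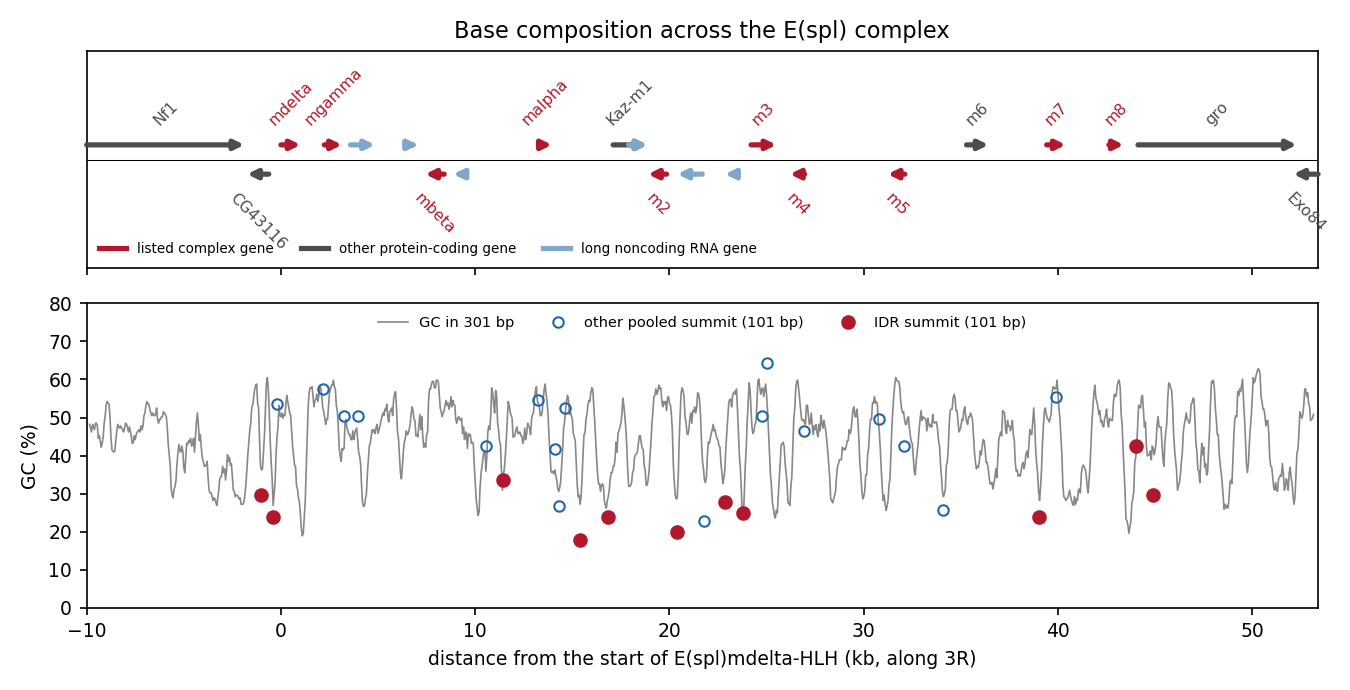
The grey line gives GC (%) in a sliding stretch, 150 bp to either side, along the window (kb from the start of E(spl)mdelta-HLH), below a map of the genes. Filled red points are the 11 IDR summits and open blue points the 17 weaker pooled summits, each at the GC within 50 bp of it. The red points run from 17.8% to 42.6%, and 10 of the 11 have lower GC than both points 500 bp away.

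The loose forkhead pattern was present at some of these summits and the strict motif at none, and with 11 summits neither count was tested. The loose pattern occurred within 50 bp of 5 of the 11 IDR summits (2, 4, 6, 7 and 11), against 35.9% of all IDR summits, and a match to the strict motif GTAAACA within 50 bp of 0 of 11, against 2.86%. The window held 16 matches to GTAAACA, while the mean for a stretch of this length over the 6 arms was 12.8. For the loose pattern it held 164, below the mean of 195. None of the 16 lay within 100 bp of an IDR summit. That distance takes in only 3.49% of the window, so few matches could fall there and nothing is read from this. Overlapping patterns were counted together, since GTAAACA is one of the words of the loose pattern. The homeodomain word TAATTA occurred at 3 of 11 summits, against 12.5% of all IDR summits, and the GAGA word GAGAG at 1 of 11, against 7.75%. Over the whole window TAATTA had 34 matches against a mean of 46.2, and GAGAG had 99 against 99.4.

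Sites for Su(H), the DNA-binding protein of Notch signalling, were abundant in the complex. The 6 words CGTGGGAA, TGTGGGAA, CGTGAGAA, TGTGAGAA, CGTGTGAA and TGTGTGAA, searched on both strands, had 47 matches in the window, against a mean of 11.7 for that length over the 6 arms. None lay within 100 bp of an IDR summit, and the nearest was 122 bp away. That distance takes in only 3.49% of the window, and 1.31% of all IDR summits had such a word within 50 bp, so few matches could fall there and nothing is read from the 0. The E-box CACGTG, which E(spl) bHLH proteins can bind, had 20 matches against a mean of 7.78, with 1 within 100 bp of an IDR summit. Proneural E-boxes (GCAGCTG or GCAGGTG) had 37 against 28.8, with the nearest 135 bp away. The N-box CACNAG had 98 against 86.1, with the nearest 136 bp away, and the Zelda word CAGGTAG had 5 against 3.61. Matches are letters in these windows and do not show that a factor is bound.

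The promoters of the listed genes differed in which words they held. From 250 bp upstream to 50 bp downstream of the gene start, E(spl)m4-BFM and E(spl)m5-HLH had 1 match each and E(spl)m8-HLH had 2, and 5.39% of all 13945 promoters of that length had at least 1. Set beside the peaks, 0 of the 4 genes with an IDR summit within 1000 bp and 3 of the 6 without had a Su(H) word. Among the 9 patterns searched, others leaned the opposite way. CACGTG was in 2 of 4 against 0 of 6, the N-box in 3 of 4 against 2 of 6 and GAGAG in 4 of 4 against 3 of 6. Of all 13945 promoters, 4.2% held CACGTG, 29.7% the N-box and 29.7% GAGAG. With 10 genes these splits were not tested, and none is read as a pattern. The 250 bp upstream of those 3 genes are printed 5′ to 3′ on the strand of the gene, in dm6, with Su(H) matches in capitals, because they are the listed promoters with such a site.
E(spl)m4-BFM, chr3R:26024580-26024829, minus strand: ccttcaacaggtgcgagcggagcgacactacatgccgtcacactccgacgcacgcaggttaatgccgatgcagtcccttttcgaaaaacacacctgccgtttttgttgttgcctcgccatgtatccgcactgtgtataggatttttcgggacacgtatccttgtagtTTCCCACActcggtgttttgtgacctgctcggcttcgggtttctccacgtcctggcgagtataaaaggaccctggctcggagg
E(spl)m5-HLH, chr3R:26029736-26029985, minus strand: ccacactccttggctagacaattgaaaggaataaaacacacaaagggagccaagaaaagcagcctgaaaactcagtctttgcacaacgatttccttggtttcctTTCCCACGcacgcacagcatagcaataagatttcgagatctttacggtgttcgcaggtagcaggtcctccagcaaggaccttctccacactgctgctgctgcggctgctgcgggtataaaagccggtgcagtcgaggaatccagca
E(spl)m8-HLH, chr3R:26039990-26040239, plus strand: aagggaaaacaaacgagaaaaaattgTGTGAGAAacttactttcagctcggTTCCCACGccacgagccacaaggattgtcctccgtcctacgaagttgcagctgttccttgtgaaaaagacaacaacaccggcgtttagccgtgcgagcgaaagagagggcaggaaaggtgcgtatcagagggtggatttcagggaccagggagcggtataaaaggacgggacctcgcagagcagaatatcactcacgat
In E(spl)m8-HLH the pair of matches lies on opposite strands, in the distal part of this stretch, and a proneural E-box word follows them.

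Other genes of the Notch pathway also carried promoter peaks. Of 25 pathway genes, gro among them, 12 had an IDR summit within 1000 bp of a TSS (48.0%, against 21.9% of all protein-coding genes). Within 500, 2000 and 5000 bp the count was 10, 14 and 15, against 18.5%, 27.7% and 43.5% of all genes. It was 8 with the strongest 2871 IDR peaks and 9 with 1 TSS per gene, without a share of all genes to set beside these. None of these contrasts was tested. The strongest was at l(2)gd1 (lethal giant discs, which acts in endosomal sorting of Notch), with signal 1862 and pooled rank 67, and 67 and 73 in replicates 2 and 3. The next was at numb, which encodes an inhibitor of Notch that is passed to 1 daughter cell, with signal 1277 and rank 175. Gro followed at rank 242, then aph-1, a subunit of the gamma-secretase that cleaves Notch, at rank 566 (signal 728.7), and rumi, a glucosyltransferase that modifies Notch, at rank 1031 (signal 508.8). The receptor gene N had a weak one, at rank 4756. Delta, Ser and Su(H) had none.

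Relatives of the listed genes elsewhere were looked up in the same way. Of 6 Bearded family genes listed outside the complex, 4 were matched in the annotation and BobB and BobC were not. Of the 4, 1 had an IDR summit within 1000 bp, which was Brd itself, at pooled rank 5274 and 603 bp upstream. Among bHLH repressor genes of the same class outside the complex it was 1 of 7, Sidpn at rank 4193, and hry, dpn and Hey had none. In a list of proneural genes and helix-loop-helix genes that work with or against them, da and emc included, 1 of 9 had one. It was da at rank 2032, with a summit within 100 bp in replicate 3 (rank 2674) and none in replicate 2. With the pooled list the counts within 1000 bp were 3 of 4, 6 of 7 and 3 of 9, against 55.9% of all genes. Against that share, and against the 21.9% for IDR summits, these lists are too short to read. The gene of the tagged protein, fd96Cb, lies 902 kb from the complex on the same arm.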

How the data were processed

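Per the labels, both libraries are ChIP-seq of sonicated chromatin from whole embryos aged 0 to 24 h. The authors deposited a peak list per replicate and a pooled list, each called against a control, and an IDR set derived from these lists, on dm6. For the read depth, aligner, peak caller and IDR threshold, the sources used here give nothing, so precision from depth is unknown. Column values deposited per peak are a signal, used only within a list to describe and rank, and a −log10 q-value, not used here. Each full list ends at 30000 peaks.

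A summit is the peak start plus the deposited offset, or the peak end where that sum ran past it. The latter held for 3 IDR peaks, 4 pooled peaks, 1 peak of replicate 2 and 3 of replicate 3. Summits were mapped to TSSs of Ensembl release 115, with a promoter window of 1000 bp, and matched between lists within 100 bp. Sequence came from the RefSeq release 6 genome, whose arms hold every peak. Python 3.11.15, numpy 2.4.6 and pandas 2.3.3 were used, and the counting steps were tested on simulated data. With 1 group no comparison between conditions was possible, and no p-value was computed. Nothing in the lists measures expression, so cell type markers could not be checked. The members, gene lists and motifs were chosen with earlier results of these data known. Named genes are the 10 members, other genes of the window that share or are nearest to a summit, and up to 5 genes per list by promoter signal. Pathway genes listed as having none were chosen after their values were seen. Alternatives varied the promoter window, TSS choice, flank, peak strength and replicate list.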

Additional observations from a re-analysis of the deposited data

How the results depend on the processing

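Of the alternatives to the settings reported, 18 moved a value and 39 did not. To be moved, a count had to change by more than 1.5 times and mean GC by more than 1 SD. A share of windows had to fall beyond its 95% binomial interval, which treats overlapping windows as independent and is too narrow. Every alternative for a share of windows was labelled moved, even 1.92% against 1.83%, so for these shares the label says little. Listed genes with an IDR summit near the TSS numbered 9 at 5000 bp in place of 4, and 4 with either replicate alone. They numbered 3 where each summit was counted only for its nearest TSS, without a share of all genes to set beside this. Their number with a pooled summit ran from 4 without replicate 3 to 10 without replicate 2. With no flank the window held 7 IDR summits. Single replicates gave 9 to 11 strong summits in the window and 18 to 43 summits in all. The share of windows with at least as many IDR summits was 4.4% with no flank, 1.92% with a flank of 20000 bp, 1.09% on 3R, 1.61% among gene-rich windows and 0.324% for the strongest 2871 IDR peaks, and ran from 2.15% without replicate 2 to 4.12% without replicate 3. For the pooled list it was 5.05% with no flank, 8.46% with 20000 bp, 7.84% on 3R and 8.37% among gene-rich windows, and ran from 1.63% without replicate 2 to 34.4% without replicate 3. The cause of these shifts was not tested. Mean GC at the strong summits ran from 26.8% to 27.4% with single replicates, and Notch pathway genes with a promoter summit from 11 to 12, with 8 to 15 over all settings. No paired analysis was possible because both samples belong to 1 group. Read depth was not known, so a gene without a summit cannot be called unbound. Whole embryos of mixed stages average over cells.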
